A study of Caenorhabditis elegans with 6 samples.

Results

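The genes described here encode small secreted peptides of the Caenorhabditis elegans epidermis that act against microbes. They are the neuropeptide-like peptides nlp-27, nlp-28, nlp-29, nlp-30, nlp-31 and nlp-34, and the caenacins cnc-1, cnc-2, cnc-3 and cnc-4. Members were the probe sets annotated to 1 of these 10 genes on the array. They numbered 9, 1 for each of 9 genes, out of 22548 on the array once controls were set aside, and nlp-34 matched none annotated to it and is not analysed here. The samples were whole worms of 2 genotypes, zip-3(gk3164) mutants and wild-type animals, each on 3 Affymetrix arrays. All 6 populations were synchronized with bleach, kept in liquid, given bacteria for control RNAi as food and taken as L4 larvae, the last larval stage. zip-3 encodes a bZIP transcription factor known as a brake on the stress program that mitochondria trigger in the nucleus, and the comparison asks which transcripts differ in level in the mutant. The labels give the allele name without the extent of the lesion, and call the arrays biological replicates without naming cultures, so p-values measure the spread between these arrays.

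The epidermis of the worm answers fungal infection and wounding by raising transcripts of these peptides. The nlp-29 group is known to be controlled by a p38 MAP kinase cascade inside the epidermis, which starts at a G protein-coupled receptor and ends at a STAT-like factor, with the GATA factor ELT-3 needed for expression. The caenacin cnc-2 is known instead to respond to the TGF-beta ligand DBL-1, which neurons release, through receptors and SMAD proteins in the epidermis. Loss of the collagens that form the annular furrows of the cuticle is also known to switch the nlp-29 reporter on.

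Values are linear MAS5 signals, scaled by the authors to a common mean on every array. A probe set was tested when its mean over the 6 arrays, on the log2 scale, reached the 40th percentile, a signal of 68.7, which left 13529 probe sets. Of the 9 peptide probe sets 7 were tested, and cnc-1 and cnc-2 were too dim. All but that of cnc-4 carry the suffix of a probe set whose probes can match related transcripts, so 8 of the 9 signals may include RNA of another gene, and members of one cluster need not be separate measurements. Signals of different probe sets are not set against each other, because each has its own affinity. In whole animals, fewer cells of a type and less RNA per cell cannot be told apart.

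Genotype did not divide the arrays cleanly. Mutant array 3 correlated with the wild-type arrays at r = 0.943 to 0.958 across tested probe sets, which are not independent replicates, and with mutant arrays 1 and 2 at 0.925 and 0.890. The brighter zip-3 probe set read 385, 459 and 234 on the mutant arrays, against 1204, 1113 and 940 in wild-type, so it was lower on every mutant array, including array 3, a log2 difference of -1.64 ± 0.28 (SE) that missed the threshold (limma adjusted p = 0.0717). Whether either zip-3 probe set lies in the lesion is not given by the labels. A second, dimmer probe set for zip-3 gave 64.4, 74.9 and 50.8 in the mutant, against 117, 84.5 and 71.9 in wild-type, with overlap and a log2 difference of -0.51 ± 0.30 (SE; limma adjusted p = 0.393). Calls gained or lost without mutant array 3 are given beside each group of genes below. In that fit 5.92% of all probe sets passed as higher in the mutant and 9.98% as lower.

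nlp-31, one of the peptide genes that fungal infection induces, was the member that rose. Its signal was 826, 912 and 958 on the 3 mutant arrays, against 235, 197 and 243 on the wild-type arrays. The genotypes were far apart and the replicates of each lay close together, with means of 898 ± 67.2 in the mutant and 225 ± 24.4 in wild-type (SD, n = 3 each). nlp-31 was 4.0-fold higher in the mutant, a log2 difference of 2.00 ± 0.19 (SE) with a 95% interval of 1.56 to 2.44 (limma adjusted p = 0.0364). It was the 1 member of 7 tested that passed. Of all probe sets tested, 0.118% passed as higher in the mutant.

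The call for nlp-31 needed nearly all arrays, while its size did not. Without single arrays the log2 difference of nlp-31 ran from 1.91 to 2.06, yet it passed only without mutant array 3, and without any other array its limma adjusted p was 0.0868 to 0.171. In those 5 fits no probe set of the whole array passed, and between 1452 and 2412 had an unadjusted p under 0.05.

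nlp-30, the neighbour of nlp-31 in the genome, read 816, 859 and 1192 in the mutant, against 348, 572 and 805 in wild-type. Its genotypes did not overlap, although the lowest mutant array was only just above the highest wild-type array. The wild-type arrays themselves differed more than 2-fold in nlp-30, and the log2 difference of 0.80 ± 0.33 (SE) did not pass (limma adjusted p = 0.243).

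nlp-29 is the member whose reporter is widely used to follow the epidermal response. Its signal was 475, 585 and 774 in the mutant, against 383, 388 and 326 in wild-type. All mutant arrays lay above all wild-type arrays, and the spread among mutant arrays was wider than that among wild-type arrays. The log2 difference of nlp-29 was 0.72 ± 0.23 (SE), a 1.64-fold higher geometric mean in the mutant, and it did not pass (limma adjusted p = 0.186).

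nlp-28 had signals of 608, 685 and 750.0 in the mutant, against 595, 585 and 407 in wild-type. The lowest mutant array and the highest wild-type array were nearly level, and the log2 difference of 0.38 ± 0.22 (SE) did not pass (limma adjusted p = 0.381). nlp-27 read 651, 915 and 1585 in the mutant, against 1599, 1376 and 807 in wild-type. Here each genotype spanned a range about as wide as the other and the ranges overlapped almost fully. The log2 difference of nlp-27 was -0.30 ± 0.38 (SE) with a 95% interval of -1.19 to 0.58, so the arrays allow a change in either direction (limma adjusted p = 0.708).

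**Figure D1:**
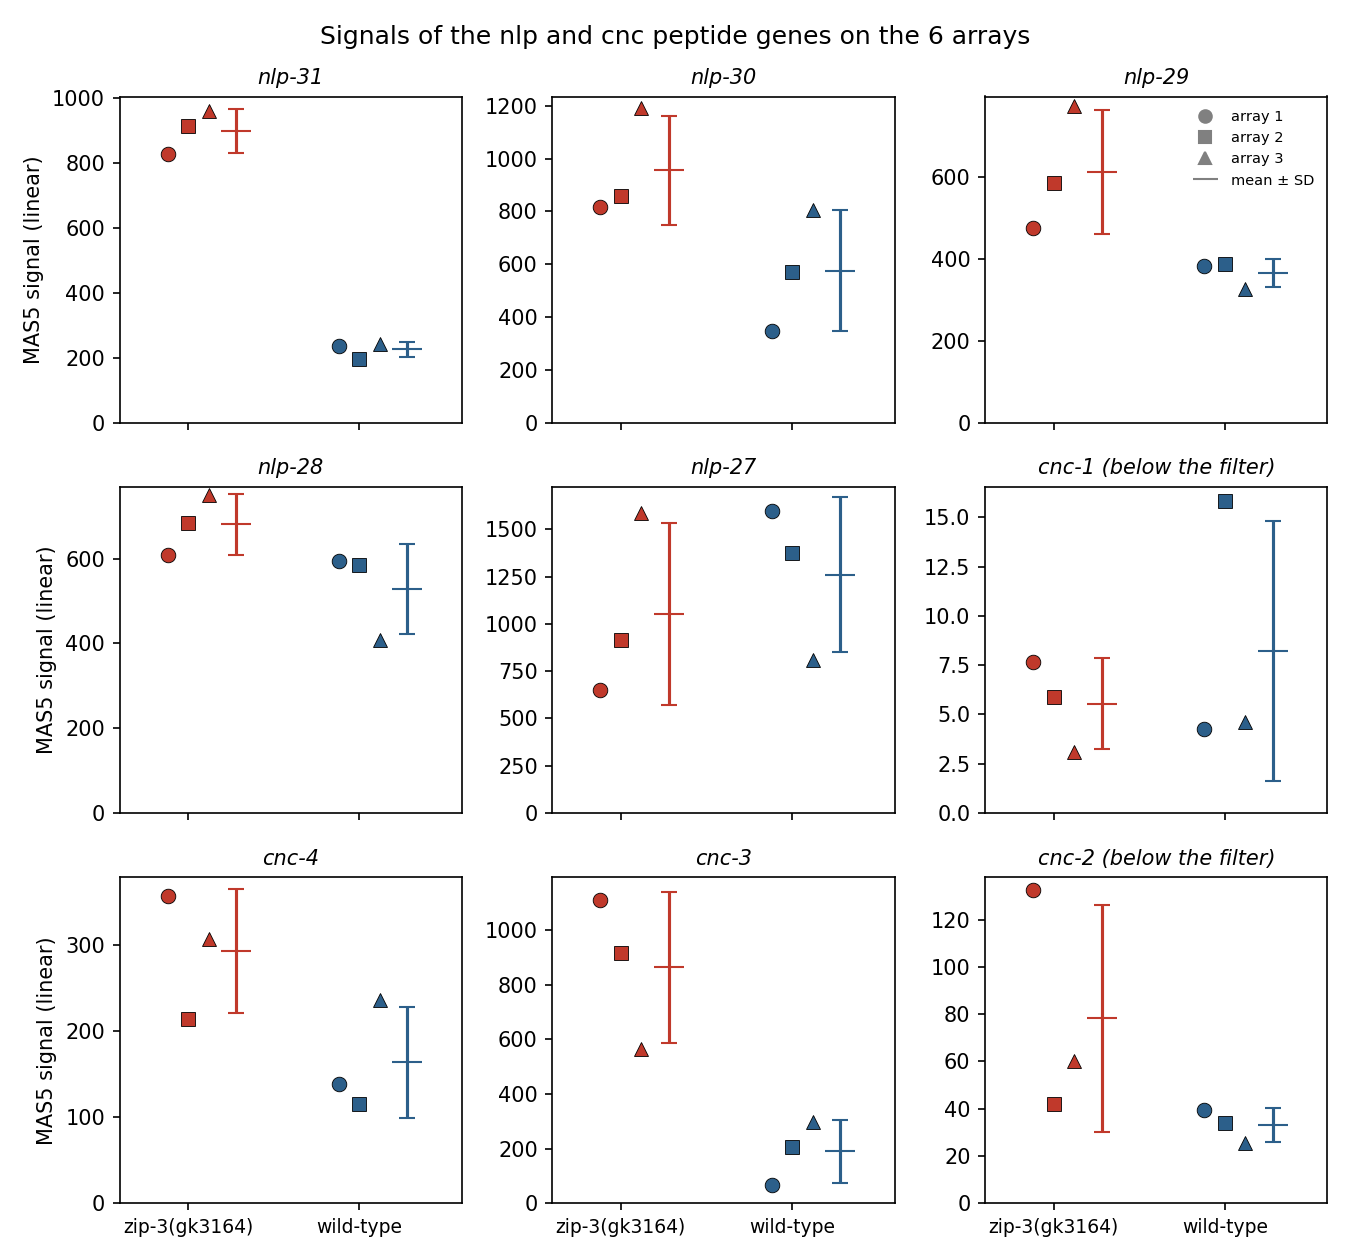
Linear MAS5 signal of the 9 peptide probe sets, with the zip-3(gk3164) arrays in red at the left and the wild-type arrays in blue at the right of each panel; symbols mark the array number, and the bar beside them the mean and SD of 3 arrays. nlp-31 has its mutant arrays at 826 to 958, against 197 to 243 in wild-type, with no other nlp gene as clearly apart, while nlp-27 overlaps between genotypes and cnc-1 is near 0 on all arrays.

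cnc-3 had the largest difference among the members, with a wide error. Its signal was 1109, 915 and 564 in the mutant, against 66.7, 205 and 298 in wild-type. Every mutant array was above every wild-type array, and within wild-type the highest array was more than 4 times the lowest. The geometric mean was 5.20-fold higher in the mutant, a log2 difference of 2.38 ± 0.55 (SE) with a 95% interval that reached 3.65 at its upper end, and it did not pass (limma adjusted p = 0.137). cnc-3 passed, at 2.66, when mutant array 3 was left out (limma adjusted p = 0.0247), beside nlp-31, where 5.92% of all probe sets passed as higher. Without wild-type array 1, the array on which cnc-3 was dimmest, the difference was 1.75.

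cnc-4 is the member whose probe set carries no suffix for shared sequence. It read 356, 214 and 307 in the mutant, against 139, 115 and 236 in wild-type. Mutant array 2 fell below wild-type array 3, so the genotypes overlapped, and the log2 difference of 0.88 ± 0.33 (SE) did not pass (limma adjusted p = 0.220).

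The remaining caenacins were below the filter and have no test. cnc-2, the one tied to DBL-1, read 133, 42.1 and 60.1 in the mutant, against 39.6, 34.1 and 25.7 in wild-type. Mutant array 2 was close to wild-type array 1 in cnc-2, and mutant array 1 stood apart from the rest. cnc-1 read 7.65, 5.89 and 3.08 in the mutant, against 4.25, 15.8 and 4.60 in wild-type, values near the bottom of the scale whose order carries no information.

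In the RefSeq gene table of assembly WBcel235 the members form 2 runs of consecutive protein-coding genes on 1 chromosome. The first run is nlp-34, nlp-31, nlp-30, nlp-29, nlp-28 and nlp-27, and the second holds cnc-1, cnc-5, cnc-4, cnc-3 and cnc-2. Read along the first run from nlp-31 to nlp-27, the log2 differences were 2.00, 0.80, 0.72, 0.38 and -0.30, each smaller than the one before. The 95% intervals of neighbours from nlp-30 to nlp-27 overlapped, and the interval of nlp-31 began at 1.56, the value at which that of nlp-30 ended. Overlap of intervals is not a test of the difference between members, which were read on the same arrays. The intervals thus leave the order along the run unsettled.

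Ratios of neighbours within each array reuse the same signals and are not separate support, but array scaling cancels in them. The log2 ratio of nlp-31 over nlp-30 was 0.02, 0.08 and -0.32 on the mutant arrays, against -0.56, -1.53 and -1.73 in wild-type. The genotypes did not overlap in this ratio, which differed by 1.20 (two-sided exact permutation p = 0.10, the smallest that 3 arrays against 3 can give). For nlp-31 over nlp-27, at the ends of the run, the log2 ratio was 0.34, -0.00 and -0.73 in the mutant, against -2.77, -2.80 and -1.73 in wild-type, a difference of 2.30. The genotypes were apart in this ratio as well, with the same exact p, which any ratio without overlap gives. The ratios of the 3 pairs between nlp-30 and nlp-27 overlapped between genotypes, with differences of 0.08 for nlp-30 over nlp-29, 0.34 for nlp-29 over nlp-28 and 0.68 for nlp-28 over nlp-27. Their two-sided exact permutation p-values were 0.8, 0.2 and 0.2, in the same order. In the caenacin run, cnc-3 over cnc-4 was 1.64, 2.10 and 0.88 in the mutant, against -1.06, 0.83 and 0.34 in wild-type, apart by a narrow margin, with an exact permutation p of 0.10. cnc-3 over cnc-2, with the dim cnc-2 below, was 3.06, 4.44 and 3.23 in the mutant, against 0.75, 2.59 and 3.54 in wild-type, and the genotypes overlapped (difference of 1.29, two-sided exact permutation p = 0.30).

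**Figure D2:**
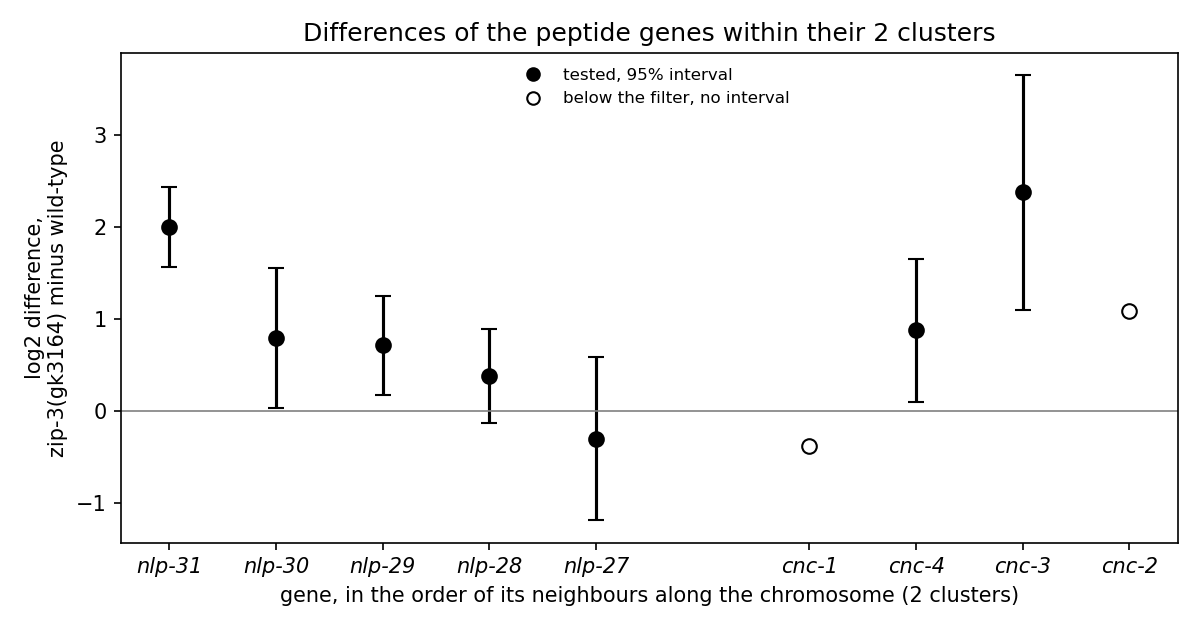
Log2 difference, zip-3(gk3164) minus wild-type, on the y axis for each peptide gene in its order along the chromosome, with 95% limma intervals for tested genes and open circles for the dim cnc-1 and cnc-2. In the nlp run the estimates step down from 2.00 at nlp-31 to -0.30 at nlp-27, and among the caenacins cnc-3 stands highest at 2.38 with the widest interval.

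Over the 7 tested members, 6 had a positive log2 difference, against 54.2% of all probe sets tested, and the median was 0.80, against 0.04. In 5 of the 7 all mutant arrays lay above all wild-type arrays, which held for 14.1% of all probe sets, and 5 had an unadjusted limma p under 0.05 in the upward direction, against 10.1%. None was lower at that level, against 9.27%. The 2 dim members stood outside these counts, cnc-2 at 1.09 and cnc-1 at -0.39 on the log2 scale. All tested members but cnc-4 have probe sets that can share sequence, so the 7 need not be separate observations. The members and the lists below were chosen with earlier results of these data known, so the shares are descriptive.

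The members did not share 1 profile over the 6 arrays. nlp-27, nlp-28, nlp-29, nlp-30 and nlp-31 each had their highest mutant signal on array 3, the array most like wild-type elsewhere, while cnc-3 had its lowest mutant signal there and cnc-4 an intermediate one. In wild-type, array 3 was the lowest for nlp-27, nlp-28 and nlp-29, and the highest for nlp-30, nlp-31, cnc-3 and cnc-4. Likeness was measured as the root-mean-square distance between log2 profiles over the 6 arrays, each centred on its own mean. By this distance nlp-28 and nlp-29 were the closest pair of members at 0.23, and nlp-27 and cnc-3 the farthest at 1.75. cnc-4 lay closest to nlp-30 at 0.39, and nlp-31 lay closest to cnc-4 at 0.66 and next to nlp-29 at 0.68.

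Among other tested genes, the 5 with profiles nearest to nlp-29 were unc-40, which encodes a netrin receptor, at 0.07, and ergi-2, R05D3.9, fbxc-43 and F33H2.3, at 0.12 to 0.14. All 5 were nearer to nlp-29 than any other member was. They were picked as the nearest out of the 10369 genes tested, members aside, whereas the members are few. The comparison thus favours them, and shared control was not tested. unc-40 itself read 253, 302 and 375 in the mutant, against 212, 185 and 169.6 in wild-type. For the dim cnc-2 the nearest were H11E01.2, Y43F8B.9, Y95B8A.6, pitr-1 and C25H3.10, at 0.21 to 0.26, genes that, like cnc-2, were brightest on mutant array 1.

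Other peptides of the same kinds that were not members gave no call with all 6 arrays. Of 12 listed, 5 were tested and 0 passed in limma, with a median log2 difference of 0.09. At an unadjusted limma p under 0.05, 0 were higher and 1 was lower, against 10.1% and 9.27% of all probe sets. nlp-25 read 239, 358 and 704 in the mutant, against 1071, 880 and 1352 in wild-type, so every mutant array was below every wild-type array, a log2 difference of -1.47 ± 0.39 (SE) that did not pass (limma adjusted p = 0.157). With mutant array 3 left out, nlp-25 fell and 0 of the 5 rose, where 9.98% of all probe sets passed as lower. nlp-24 stood at 0.75 ± 0.76, nlp-26 at -0.17 ± 0.37, nlp-33 at 0.09 ± 0.34 and cnc-8 at 0.19 ± 0.22, all with overlapping genotypes. The 4 listed in this group that were too dim were nlp-32, cnc-5, cnc-6 and cnc-7.

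The fungus-induced peptides, a further family of small secreted peptides raised by infection, had 4 tested of 36 listed and 0 that passed, with a median of -0.11. At an unadjusted limma p under 0.05, 1 was higher, against 10.1% of all probe sets. The gene higher at that level was fip-5, which read 664, 1100.2 and 635 in the mutant, against 429, 482 and 450 in wild-type (0.77 ± 0.25, SE). In the fit without mutant array 3, fip-5 passed as higher and fipr-2 as lower, beside 5.92% and 9.98% of all probe sets. The others tested were fipr-2 at -0.76 ± 0.44, fip-2 at -0.20 ± 0.36 and fipr-21 at -0.02 ± 0.18.

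Genes of the epidermal p38 cascade gave no call. Of 20 listed genes 16 were tested and 0 passed in limma, with a median of 0.32, against 0.04 over all probe sets. A positive difference was found in 14 of the 16, against 54.2% of all probe sets, and 3 were higher at an unadjusted p under 0.05, against 10.1%. Leaving out mutant array 3 again gave 0 that passed, of 17 tested. The GATA factor gene elt-3 read 1542, 1506 and 1619 in the mutant, against 1068, 1041 and 1002 in wild-type. Its genotypes were well apart, with a log2 difference of 0.58 ± 0.15 (SE; limma adjusted p = 0.154). vhp-1, which encodes a MAP kinase phosphatase, stood at 0.66 ± 0.19, and egl-8, which encodes a phospholipase C beta, at 0.60 ± 0.24, also with no overlap. akir-1, which encodes the nuclear akirin, stood at -0.33 ± 0.19 with overlap.

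The DBL-1 pathway tied to cnc-2 had 9 tested genes of 11 listed, all 9 positive and 0 past the threshold in limma, with a median of 0.54 and 4 higher at an unadjusted p under 0.05, against 10.1% of all probe sets. The ligand gene dbl-1 read 170, 166 and 172 in the mutant, against 94.8, 82.4 and 109 in wild-type. Its mutant arrays were nearly equal and all above wild-type, with a log2 difference of 0.84 ± 0.23 (SE; limma adjusted p = 0.159). Among the receptors, daf-4 stood at 0.78 ± 0.30 and sma-6 at 0.59 ± 0.26. The SMAD genes stood at 0.05 ± 0.27 for sma-2, 0.54 ± 0.29 for sma-3 and 0.54 ± 0.19 for sma-4. The zinc finger cofactor gene sma-9 stood at 0.56 ± 0.18, the receptor-binding sma-10 at 0.29 ± 0.27 and the glypican gene lon-2, an inhibitor of the pathway, at 0.26 ± 0.23. Without mutant array 3, daf-4, sma-6, sma-3 and sma-9 passed, beside 5.92% of all probe sets.

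Of the 6 furrow collagens listed, 5 were tested and 0 passed in limma with all 6 arrays. In all 5 the mutant arrays lay above the wild-type arrays, against 14.1% of all probe sets, and the unadjusted p was under 0.05, against 10.1%. The median log2 difference was 1.98. dpy-7 read 1370.4, 1670 and 1004 in the mutant, against 238, 407 and 483 in wild-type (1.87 ± 0.32, SE; limma adjusted p = 0.0717). dpy-2 stood at 2.51 ± 0.44, dpy-3 at 1.98 ± 0.27, dpy-8 at 2.30 ± 0.41 and dpy-9 at 1.63 ± 0.31. All 5 passed without mutant array 3, beside 5.92% of all probe sets.

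Genes of osmotic stress, another known trigger of nlp-29, had a median of 0.00 over 6 tested genes, and 0 passed in limma. At an unadjusted limma p under 0.05, 1 was higher, against 10.1% of all probe sets. gpdh-1, the glycerol-producing enzyme that high salt induces, read 596, 402 and 312 in the mutant, against 425, 514 and 534 in wild-type (-0.21 ± 0.27, SE). The others were hmit-1.1 at -0.29 ± 0.37, gpdh-2 at 0.10 ± 0.21, osm-11 at -0.09 ± 0.19, osm-7 at 0.32 ± 0.33 and osm-8, which encodes a mucin-like protein that holds the osmotic response down, at 1.97 ± 0.46. osm-8 passed as higher without mutant array 3, beside 5.92% of all probe sets.

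Transcripts of the moulting cycle and most of those of the epidermis also had positive differences. These lists share genes with each other and with lists above, such as nhr-25, nhr-23, dpy-7 and elt-3. Their counts are therefore not separate observations. In the list of 23 moulting genes, all 23 tested were positive, against 54.2% of all probe sets, with a median of 1.74. Of these, 6 rose, mlt-11, dpy-6, lpr-1, lpr-3, let-653 and sym-1, beside 0.118% of all probe sets. The list was chosen with earlier results of these data known, so its counts are no independent test. Without mutant array 3, 14 of the list rose, beside 5.92% of all probe sets, and without any other single array 0 passed. The per-array medians of that list were 1.91, 1.76 and 1.37 in the mutant relative to the wild-type mean, against -0.62, 0.16 and 0.30 on the wild-type arrays. cnc-3 followed the same order of arrays, at 2.79, 2.52 and 1.82 on the mutant arrays, against -1.26, 0.36 and 0.90 on the wild-type arrays. nlp-31 did not, at 1.88, 2.02 and 2.09 on the mutant arrays, against 0.07, -0.18 and 0.12 on the wild-type arrays, and was nearly flat within each genotype.

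In the longer epidermis list 16 of 21 tested genes were positive, against 54.2% of all probe sets. The median was 0.70, and 0 passed the threshold in limma. At an unadjusted limma p under 0.05, 12 were higher and 2 lower, against 10.1% and 9.27% of all probe sets. By the size of the test statistic nhr-25 led at 1.74 ± 0.24 (SE), followed by wrt-10 at 2.40 ± 0.40, dpy-7 at 1.87 ± 0.32 and wrt-2 at 2.25 ± 0.40. Without mutant array 3, 7 genes of the list passed as higher and 1 as lower, beside 5.92% and 9.98% of all probe sets. The 8 epidermis markers are all part of that longer list. They split, with 5 positive, a median of 0.86 and 0 past the threshold in limma (4 higher without mutant array 3). Their summed signal was 31302 to 35569 in the mutant, against 34515 to 37962 in wild-type. Most of that sum was 1 gene, sqt-3, at 21808 to 26906 in the mutant, against 29572 to 33940 in wild-type. The sum therefore says little of the other markers. The positive markers were dpy-7 at 1.87, nhr-25 at 1.74, rol-6 at 1.44, che-14 at 1.13 and elt-3 at 0.58. The negative ones were lin-26 at -0.06, sqt-3 at -0.36 and elt-1 at -0.49.

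Sperm markers, oocyte and germline markers and yolk genes had negative differences, of very different size on the 3 mutant arrays. All 9 tested sperm markers were negative, with a median of -1.50 and a summed signal of 24702 to 85285 in the mutant, against 101771 to 125667 in wild-type. The 8 oocyte and germline markers were negative too, with a median of -1.01 and sums of 6356 to 14113 in the mutant, against 12747 to 16558 in wild-type. For the 4 yolk genes the median was -0.71, with sums of 39046 to 102919 in the mutant, against 97665 to 115339 in wild-type. All 9 sperm probe sets carry the suffix for shared sequence. With such probe sets left out, 3 oocyte and germline markers and 1 yolk marker remained. The markers of a list thus need not be separate observations, and the sums may count the same RNA more than once. No marker of these 3 lists passed in limma, with 8, 4 and 1 lower at an unadjusted p under 0.05, beside 9.27% of all probe sets. Without mutant array 3 the medians were -2.01, -1.38 and -1.06, and 8 of the 9 sperm, 7 of the 8 oocyte and germline and 3 of the 4 yolk markers passed as lower, beside 9.98% of all probe sets.

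Markers of body wall muscle, neurons and intestine differed by less. The 5 body wall muscle markers had a median of 0.25, the 4 neuron markers tested 0.12 and the 7 intestine markers 0.05. At an unadjusted limma p under 0.05, 1 muscle marker was higher, against 10.1% of all probe sets, and 0 neuron or intestine markers differed. In any of the 3 lists, 0 passed the adjusted threshold. Of these 3, only the intestine list gained calls without mutant array 3, ges-1 and cpr-1 as higher, beside 5.92% of all probe sets. No marker of the lists read 0 on any array. The part of developmental stage, germ line content and amount of epidermal RNA in the peptide values was not tested.

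**Figure D3:**
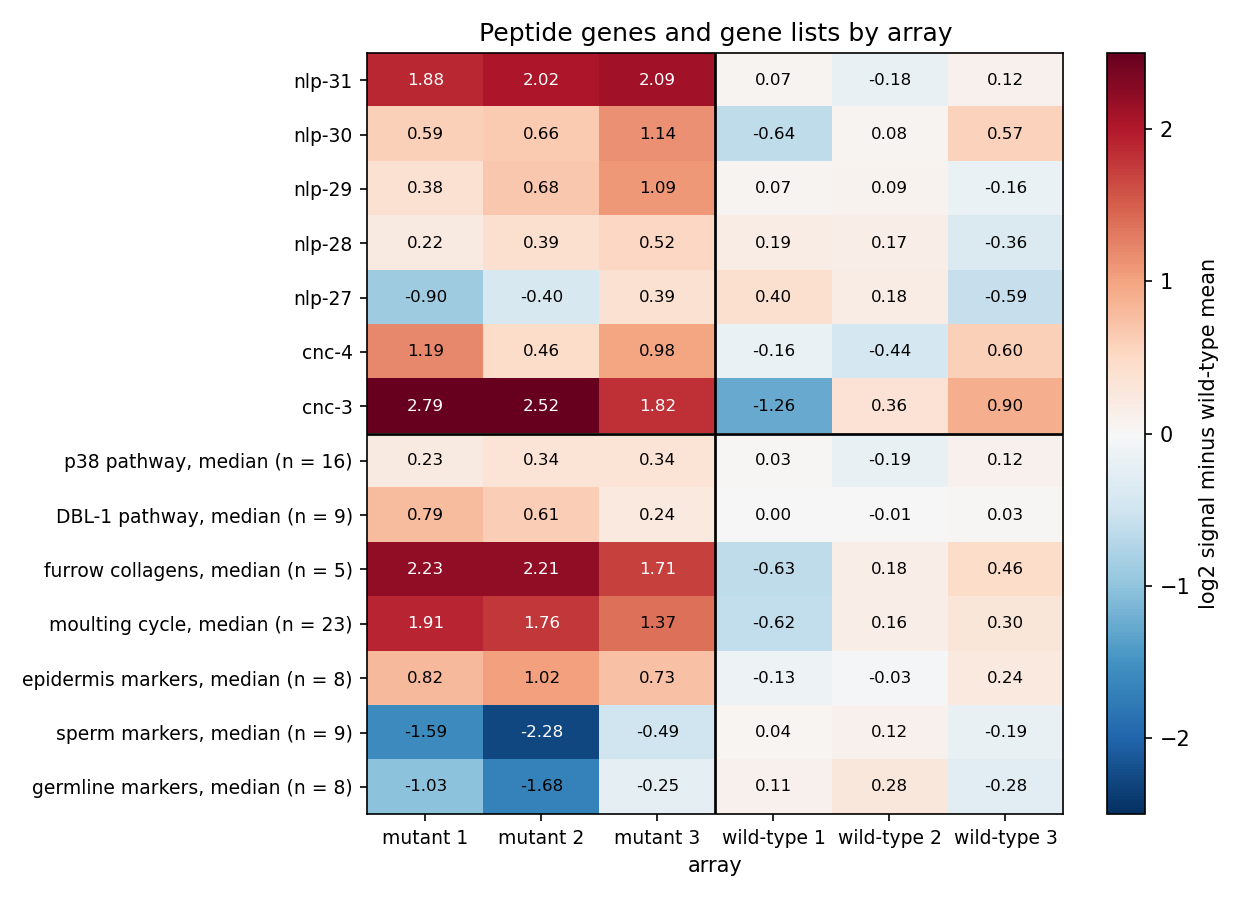
Log2 signal of each tested peptide gene (upper rows) and median over each gene list (lower rows) on each array relative to the wild-type mean, mutant arrays at the left and wild-type arrays at the right, with red for higher and blue for lower. nlp-31 is even within each genotype, and cnc-3 follows the order of the furrow collagen and moulting medians. The sperm and germline medians are lowest on mutant array 2. Of the mutant arrays, array 3 is closest to wild-type in both, at -0.49 for sperm, below every wild-type array, and -0.25 for germline.

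The members differed in how far single arrays carried their values. The nlp-30 difference was 0.47 without wild-type array 1 and 1.08 without wild-type array 3. For nlp-29 it ran from 0.53 to 0.88, for nlp-28 from 0.20 to 0.48 and for cnc-4 from 0.66 to 1.18. nlp-27 was at -0.01 without mutant array 1 and at -0.65 without mutant array 3. None of the 7 changed sign when any 1 array was left out.

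**Figure D4:**
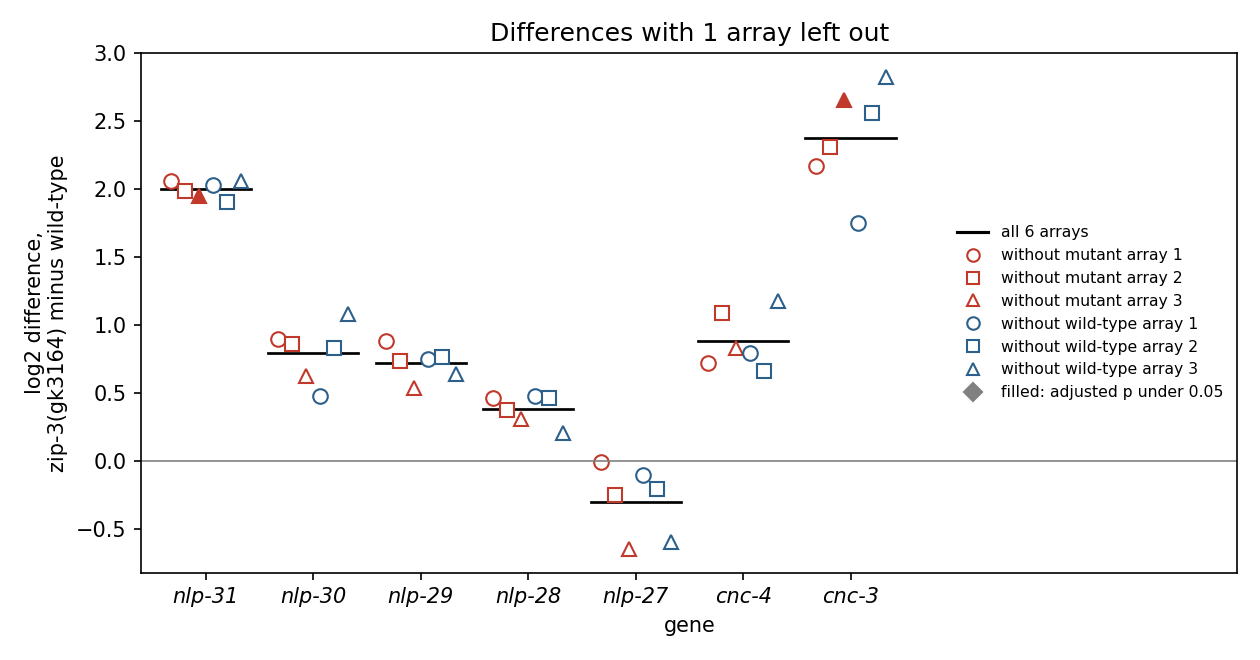
Log2 difference, zip-3(gk3164) minus wild-type, of each tested peptide gene with all 6 arrays (black line) and with 1 array left out (red without a mutant array, blue without a wild-type array), filled where the limma adjusted p is under 0.05. nlp-31 stays between 1.91 and 2.06, cnc-3 runs from 1.75 to 2.83, and the filled symbols are those of nlp-31 and cnc-3 without mutant array 3.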

How the data were processed

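Total RNA of whole worms was labelled with biotin by a 3' in vitro transcription kit and hybridized to 6 arrays. The deposited intensity values are linear probe set signals which the submitters' processing notes credit to MAS5 and the Affymetrix Expression Console, with versions not given in the sources used here. The mean without the outer 2% at each end was 500.2 on every array, so the authors had scaled them. MAS5 subtracts mismatch signal, which makes dim probe sets noisy. No detection calls were used, so the filter on signal stands in for them. The number of arrays limits precision.

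Signals were taken to log2 with no constant. Of 22625 probe sets, 77 controls were left out. Genotypes were compared by limma 3.58.1 (R 4.3.3) with empirical Bayes moderation along an intensity trend. Tests were two-sided, and p-values were adjusted by Benjamini-Hochberg over 13529 probe sets, with a threshold of 0.05. The SE is the moderated one. The platform annotation named 1 gene for 20766 probe sets, several for 887 and none for 895, and WBcel235 changed 0 symbols. A gene in a list was represented by its brightest probe set. All peptide probe sets are described. Of each list, the genes that passed are described or, with none, the 4 with the largest moderated statistic. Every tested gene is described for lists with up to 12. The cell type marker lists are instead given by counts, medians and, for some, summed signals, and the epidermis markers also gene by gene. Lists were described by counts and medians. Members, lists and tests were chosen with earlier results of these data known.

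Mutant against wild-type was simulated on arrays with 13529 probe sets. The share of true changes found was 12% at a log2 size of 1, 58% at 2, 80% at 3 and 98% at 4. Of 127 calls, 3 were false. The simulated noise was drawn separately for each probe set, with no shift shared across an array. The real arrays differ in that respect, mutant array 3 above all, so these shares need not hold for them. Alternatives were other normalizations, an offset, other filters, other empirical Bayes settings, array weights, a replicate block, single arrays left out, and probe sets of shared sequence left out.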

Additional observations from a re-analysis of the deposited data

How the results depend on the processing

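The log2 differences of the 7 tested peptides kept their direction in the 70 refits that can move the estimate, by other scaling, an offset, array weights or 1 array left out. The other 35, with another filter, prior or a block, leave the estimate as it is and test only the call. Of all 105 refits, 94 kept their side of the threshold. The difference of nlp-31 ran from 1.91 to 2.06, and it passed in 9 of 15 refits (limma adjusted p from 0.00115 to 0.171). With all 6 arrays, 18 probe sets passed, 1 of them a peptide. That count was 42 with an offset of 16, where nlp-31 was again the 1 peptide. With array weights it was 4738, 2464 of them higher, 18.2% of all probe sets tested, and 2274 lower. Among these were 5 peptides, nlp-27 at -0.92, nlp-30 at 0.72, nlp-31, cnc-3 at 2.89 and cnc-4 at 1.26. The cause of the larger count was not tested. Leaving out single arrays gave 0 to 2151 probe sets and 0 to 2 peptides, above 0 only without mutant array 3, where 801 were higher and 1350 lower. With fewer arrays each fit also has fewer degrees of freedom. Without probe sets of shared sequence, cnc-4 was the only peptide left and did not pass. The replicate block gave 0 probe sets and 0 peptides (2334 at an unadjusted limma p under 0.05, and an adjusted p of 0.122 for nlp-31). Deviations of same-numbered arrays correlated at 0.02, 0.05 and -0.16. Deviations from means of so few arrays cannot settle whether the numbers pair the arrays, and the labels do not say. Centring arrays on their medians moved the median of all probe sets from 0.04 to -0.02 and turned no peptide. cnc-1 and cnc-2 lie where background subtraction dominates, and their differences have no test.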
